A study of Mus musculus with 9 samples.

Results

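The genes described here are 45 regulators and markers of the cell cycle. They were chosen by name for their known roles, not by a cut on measured values, but with earlier results of these data known. They fall into 23 genes that act in the G1 phase, at the G1/S transition and in DNA replication (the G1/S genes), and 22 that act in G2 and mitosis (the mitotic genes). A gene was taken from the deposited table when a probe carried its symbol and no other, and from several such probes the one with the highest mean over the 9 arrays was used. This gave 44 of the 45 genes, among 19938 genes in all, with all 23 G1/S genes and 21 mitotic genes. Ccnb1, the cyclin B1 gene, was not analysed here. For E2f3, Pcna and Top2a there were 2 probes each, and no probe of these 3 genes passed the test in any comparison.

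MA-10 is a line of mouse Leydig tumour cells, which produce steroids in response to cAMP. There were 9 arrays: 3 of cells given 10 µM forskolin together with 1 mM AICAR, 3 of cells given 10 µM forskolin, and 3 of cells given the DMSO vehicle (control). Forskolin raises cAMP by switching on adenylyl cyclase, and AICAR is converted in cells to an AMP mimic that activates the kinase AMPK. All cells were in medium without serum for the 1.5 h of treatment, after growth in horse serum. Every AICAR value comes from cells that also received forskolin, and a group with AICAR as the only agent was not analysed here. Control samples are titled as untreated, whereas their treatment field names DMSO. Whether replicates came from separate cultures is not stated, so p-values reflect the spread among these samples alone, which may be technical, and precision is limited by how few arrays there are. The arrays measure RNA pooled over a culture, in which fewer cells in a phase and less RNA per cell cannot be told apart.

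A dividing cell passes through G1, copies its DNA in S phase, and after G2 divides in mitosis, driven by cyclins bound to cyclin-dependent kinases (CDKs). In G1, D-type and E-type cyclins lead to the release of E2F transcription factors from the retinoblastoma protein family, and E2F factors switch on the genes for DNA replication. Genes of G2 and mitosis are switched on later by MYB-MuvB and FOXM1, and are held back in resting cells by the DREAM complex, which binds a promoter element called CHR (cell cycle genes homology region). In Leydig cells cAMP is the second messenger of luteinizing hormone, and AMPK is known as a brake on cell growth when energy is short.

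The array medians ranged over log2 values of 7.14 to 7.19, and any pair of arrays correlated at 0.984 to 0.998 over all probes. The markers of the label were present: of 10 Leydig cell markers 8 were measured, 7 of them with a mean log2 value of at least 9, and Lhcgr and Insl3 were not analysed here. None of the 4 germ cell, 6 macrophage and 6 peritubular and fibroblast markers reached a mean of 9, whereas Sox9 and Gata1 of 6 Sertoli cell markers and Cdh5 of 4 endothelial markers did. Star, the cAMP-responsive cholesterol transporter, had mean log2 values of 8.42 with forskolin and AICAR, 10.5 with forskolin and 8.58 in control, and was thus higher with forskolin than in control and lower when AICAR was added. AICAR replicates 1 and 3 stood apart from their group: over all genes the SD of their deviations from the group mean was 0.093 each, against 0.052 to 0.077 for the other 7 arrays. Results that rest on them are given with and without them.

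**Figure D1:**
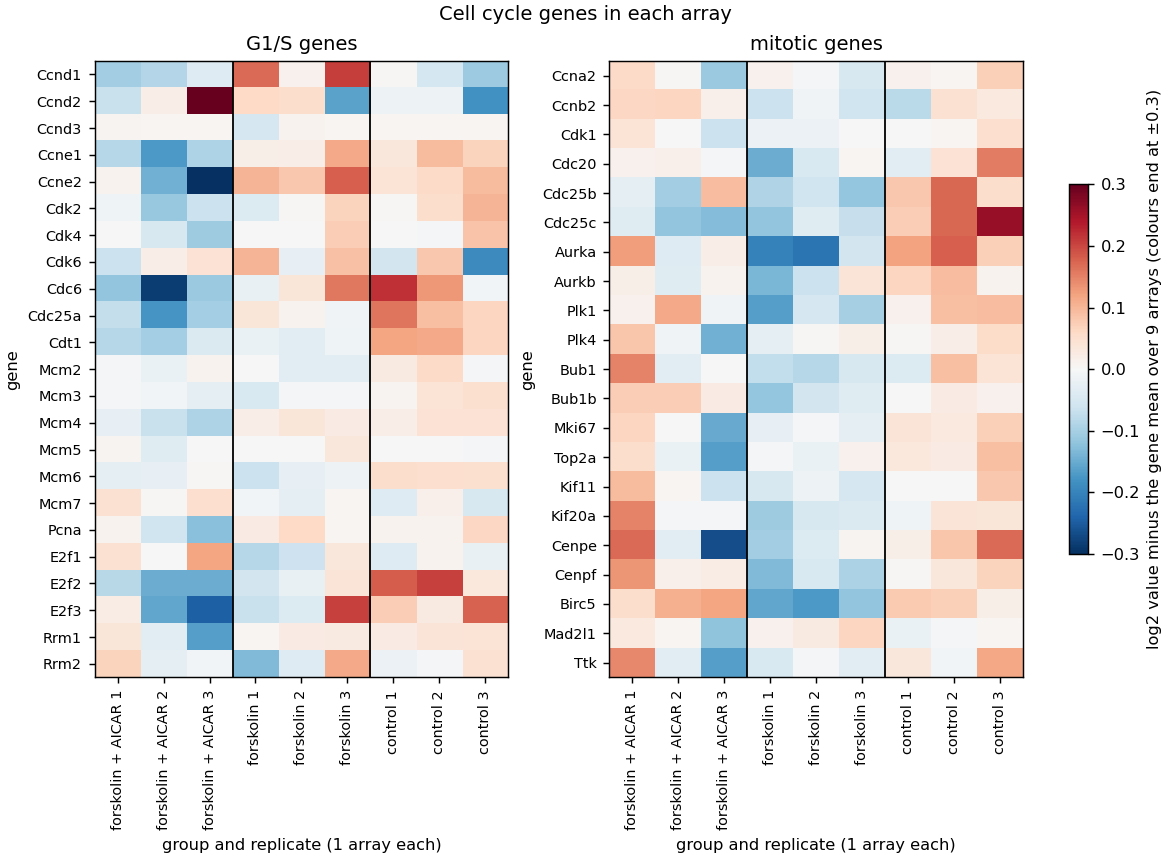
Log2 value of each gene in each array minus the mean of that gene over the 9 arrays, with G1/S genes on the left, mitotic genes on the right and the groups separated by lines. The mitotic genes are mostly blue in the 3 forskolin arrays, while among G1/S genes Ccne1, Cdc6, Cdc25a, Cdt1 and E2f2 are blue in the 3 arrays with AICAR.

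Of the 44 genes, 40 had a mean log2 value of at least 9. For that reason the values over the 6093 genes with a mean of at least 9 are given beside those over all genes. Differences are in log2 units, with the standard error (SE) from a linear model (limma) fitted to all genes. Genes with a Benjamini-Hochberg adjusted p under 0.05, adjusted over all genes, are called changed.

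Forskolin against control asks what a rise in cAMP did to these transcripts within 1.5 h. The mitotic genes were slightly lower after forskolin, by small amounts that rarely passed the test gene by gene. Of 21 mitotic genes, 20 had a log2 difference below 0, with a median of -0.086 and quartiles of -0.14 and -0.053. Over all genes 47.6% were below 0, with a median of 0.003, and over genes with a mean of at least 9 it was 63.1%, with a median of -0.016. The 3 forskolin values lay below all 3 control values for 13 of the 21 (61.9%), a pattern seen in 7.13% of all genes and 14.5% of those with a mean of at least 9. Mad2l1, a subunit of the spindle checkpoint, was the exception, at a difference of 0.041 and with forskolin values above all control values, as in 6.85% of all genes.

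Birc5, the chromosomal passenger survivin, was the only one of the 44 genes called after forskolin, against 0.692% of all genes (0.497% called higher and 0.196% called lower). Its log2 values were 9.72, 9.70 and 9.75 with forskolin, against 9.95, 9.94 and 9.89 in control. The groups did not overlap, and Birc5 fell by 0.20 (SE 0.037, 1.15-fold, adjusted p = 0.0496). The call was marginal: it ended when any 1 array other than AICAR replicate 1 was left out, with adjusted p of up to 0.245, while the difference stayed between -0.22 and -0.19.

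Aurka, the kinase that matures centrosomes and builds the spindle, had the largest difference. Its log2 values were 9.73, 9.71 and 9.88 with forskolin, against 10.05, 10.11 and 10.00 in control (difference -0.28, SE 0.059, adjusted p = 0.096). All forskolin values were below all control values, but the change did not pass the test. Cdc25c and Cdc25b, phosphatases that switch on CDK1 for entry into mitosis, differed by -0.24 (SE 0.053, adjusted p = 0.112) and -0.19 (SE 0.055, adjusted p = 0.29). Plk1, the polo kinase of mitotic entry and exit, had 11.08, 11.20 and 11.15 with forskolin, against 11.26, 11.34 and 11.34 in control (-0.17, SE 0.048, adjusted p = 0.285). In these 4 genes, too, the 2 groups did not overlap.

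The other mitotic genes differed by less. The kinetochore proteins Cenpe and Cenpf, of which Cenpe is a motor, differed by -0.14 (SE 0.095) and -0.13 (SE 0.045), and the kinesins Kif20a and Kif11, motors of cytokinesis and of spindle bipolarity, by -0.086 and -0.064. The spindle checkpoint kinases Bub1, Bub1b and Ttk differed by -0.099, -0.083 and -0.075. Aurkb, the kinase of the chromosomal passenger complex, had a difference of -0.11 and Cdc20, the activator of the anaphase-promoting complex, -0.12. Closest to 0 on the lower side were Plk4, which starts centriole duplication, and the mitotic kinase Cdk1 itself, both at -0.030.

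The direction of the mitotic genes did not rest on 1 array. With each array left out in turn, 20 of 21 stayed below 0 and the median ranged from -0.10 to -0.067. For the 13 genes with all forskolin values below control the sign was fixed in advance, and AICAR arrays do not enter the difference. The difference was small beside Star, which rose by 1.89 (SE 0.058, adjusted p = 2.8e-07) in the same comparison.

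To show the CHR in its sequence, the stretch from 150 bases before to 50 bases after the annotated start is printed for 4 mitotic genes. Birc5 and Cdc25b, which had an unadjusted p under 0.05 after forskolin, had no CHR in the promoter searched. The 4 printed genes also had such a p and were picked for a CHR in that stretch. They are Aurka (chr2:172370521-172370720, minus strand), Plk1 (chr7:122159285-122159484, plus strand), Bub1b (chr2:118598061-118598260, plus strand) and Cenpf (chr1:189688037-189688236, minus strand), from RefSeq on GRCm38.p6. They read 5′ to 3′ on the strand of the gene, and capitals mark the CHR (TTTGAA) and the CCAAT box (CCAAT), each searched on both strands, so that ATTGG is a CCAAT box on the other strand.
Aurka: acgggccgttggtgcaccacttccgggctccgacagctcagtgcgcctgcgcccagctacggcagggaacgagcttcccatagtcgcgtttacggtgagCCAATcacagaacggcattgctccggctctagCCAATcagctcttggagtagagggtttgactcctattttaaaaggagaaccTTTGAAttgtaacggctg
Plk1: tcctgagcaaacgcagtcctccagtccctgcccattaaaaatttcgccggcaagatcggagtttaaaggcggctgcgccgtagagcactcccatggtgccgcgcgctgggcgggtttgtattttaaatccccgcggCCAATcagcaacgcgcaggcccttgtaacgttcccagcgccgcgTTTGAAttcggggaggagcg
Bub1b: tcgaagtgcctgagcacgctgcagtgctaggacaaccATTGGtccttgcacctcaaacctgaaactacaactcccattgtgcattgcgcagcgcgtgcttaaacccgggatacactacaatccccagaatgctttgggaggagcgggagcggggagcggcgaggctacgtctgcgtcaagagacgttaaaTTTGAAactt
Cenpf: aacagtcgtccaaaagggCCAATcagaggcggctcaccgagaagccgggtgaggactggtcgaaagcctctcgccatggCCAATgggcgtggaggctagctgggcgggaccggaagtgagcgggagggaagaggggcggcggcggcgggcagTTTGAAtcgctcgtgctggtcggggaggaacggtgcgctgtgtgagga
Counted from the start site, the CHR of these 4 genes began at positions 33, 31, 41 and 3, downstream of the CCAAT boxes.

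The promoter table matched 36 of the 44 genes, in 40 windows of 300 bases, from 250 before to 50 after a start. The CHR letters were found in 11 of 17 windows of mitotic genes (64.7%), 3 of 23 windows of G1/S genes (13.0%) and 17.9% of all 32851 windows in the table. CCAAT boxes were found in 82.4% of mitotic, 65.2% of G1/S and 37.4% of all windows. All 11 mitotic genes with a CHR also had a CCAAT box, and in each a CHR began between 100 bases before and 50 after the start. The letters of the cAMP response element (CRE, TGACGTCA) were found in 1 mitotic window (Cenpe), 1 G1/S window (Mcm5) and 1.79% of all windows. The 11 mitotic genes with a CHR had a median difference of -0.075 after forskolin and the 6 without one, Birc5 among them, -0.12. A match describes the letters and not a bound site.

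The G1/S genes had no common direction after forskolin. Of 23, 16 were below 0 with a median of -0.017, close to the -0.016 of all genes with a mean of at least 9, and none passed the test in limma, with 4 at an unadjusted p under 0.05 (7.27% of all genes). The smallest p was that of Cdt1, which loads the replicative helicase onto DNA. Its log2 values were 10.47, 10.46 and 10.48 with forskolin, against 10.60, 10.60 and 10.55 in control (difference -0.12, SE 0.035, adjusted p = 0.309). Ccnd1, the cyclin D1 that links growth signals to the cycle, pointed the other way, at 9.60, 9.45 and 9.64 with forskolin, against 9.44, 9.38 and 9.33 in control (0.18, SE 0.055, adjusted p = 0.346). The median of the G1/S genes was -0.04 without forskolin replicate 3 and 0.002 without forskolin replicate 1. The 6 subunits of the MCM helicase stayed within -0.085 (Mcm6) and 0.014 (Mcm7).

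**Figure D2:**
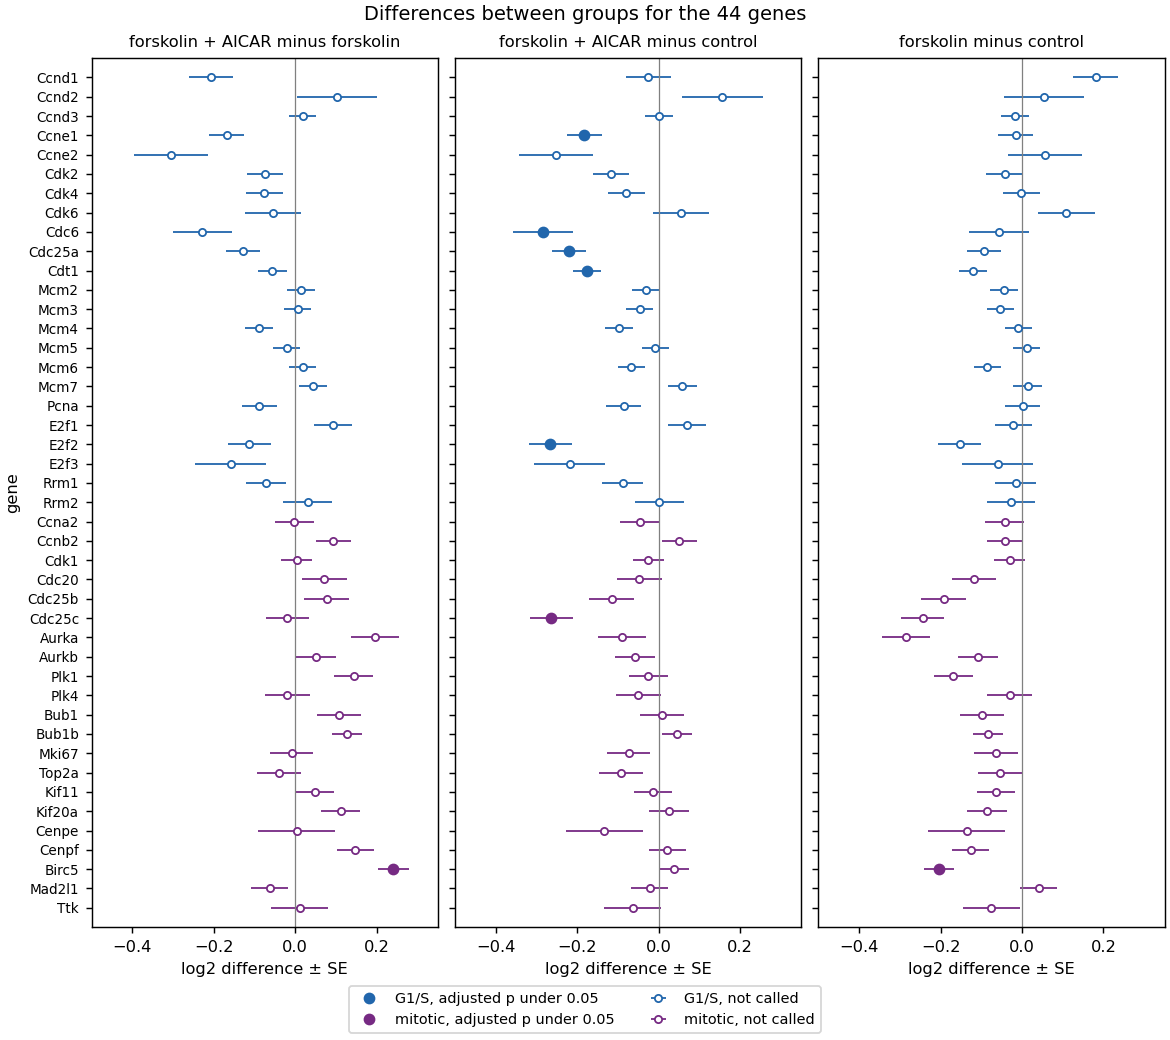
Log2 difference (point) and SE (bar) of each of the 44 genes in the 3 comparisons, G1/S genes in blue and mitotic genes in purple, filled where the adjusted p is under 0.05. In the forskolin panel the purple points lie left of 0 except Mad2l1, and in the panel of forskolin with AICAR against control 5 of the 6 filled points are G1/S genes.

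Forskolin with AICAR against forskolin asks what AICAR added. This comparison uses the same forskolin arrays as the one above, so a forskolin array that is low makes one difference fall and the other rise, and the values are set side by side without a correlation. The mitotic genes were mostly higher with AICAR than with forskolin alone. Of 21 mitotic genes 15 were above 0, with a median of 0.051, and the AICAR values of 8 (38.1%) lay above all forskolin values, against 11.5% of all genes and 9.65% of those with a mean of at least 9. Of 23 G1/S genes 15 (65.2%) were below 0, near the 59.3% of genes with a mean of at least 9 (40.8% of all genes), with a median of -0.072, and 8 (34.8%) lay below all forskolin values, against 12.2% and 18.6%. The median over all genes was 0.023, and -0.018 over those with a mean of at least 9.

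Birc5 was again the only gene called, against 5.1% of all genes (0.978% called higher and 4.12% called lower). Its log2 values were 9.92, 9.98 and 9.99 with forskolin and AICAR, against 9.72, 9.70 and 9.75 with forskolin, and it rose by 0.24 (SE 0.037, 1.18-fold, adjusted p = 0.00591). That put it close to the control values of 9.95, 9.94 and 9.89 (difference from control 0.037, adjusted p = 0.504). The call held with each array left out in turn (adjusted p of 0.00613 to 0.0343), though not when replicate 3 of every group was left out (adjusted p = 0.0553). At an unadjusted p under 0.05 there were 6 G1/S genes, all lower, and 6 mitotic genes, all higher, against 24.1% of all genes.

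Aurka had 10.06, 9.89 and 9.95 with forskolin and AICAR, against 9.73, 9.71 and 9.88 with forskolin (0.19, SE 0.059, adjusted p = 0.0988). Cenpf (0.15, adjusted p = 0.0974), Plk1 (0.14, adjusted p = 0.124), Bub1b (0.13, adjusted p = 0.0846) and Kif20a (0.11, adjusted p = 0.203) also had no overlap between the groups, and none passed the test. Cdc25c did not share this pattern, at 8.01, 7.93 and 7.92 with forskolin and AICAR, against 7.93, 8.01 and 7.98 with forskolin (-0.02, adjusted p = 0.828). Nor did Mki67, the proliferation marker Ki-67 (-0.009), Top2a, which untangles replicated DNA (-0.040), or Cdk1 (0.003).

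The spread among the AICAR arrays was wide for the mitotic genes. Cenpe had 9.71, 9.50 and 9.27 in AICAR replicates 1, 2 and 3, against 9.43, 9.49 and 9.54 with forskolin, so that the AICAR values ran past the forskolin values on both sides. The median SD over the mitotic genes was 0.081 with forskolin and AICAR, 0.029 with forskolin and 0.041 in control. Without AICAR replicate 1, 12 of 21 mitotic genes were above 0 with a median of 0.041, and without AICAR replicate 3, 19 of 21 with a median of 0.084. Without forskolin replicate 1 the median was 0.028.

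Among G1/S genes the differences furthest below 0 were those of the cyclin genes and Cdc6. Ccne2, a cyclin E gene, had 9.72, 9.57 and 9.29 with forskolin and AICAR, against 9.81, 9.79 and 9.89 with forskolin (-0.31, SE 0.091, adjusted p = 0.0909). Ccnd1 had 9.33, 9.35 and 9.40 with forskolin and AICAR, against 9.60, 9.45 and 9.64 with forskolin (-0.21, SE 0.055, adjusted p = 0.0664). Ccne1 had 10.75, 10.66 and 10.74 with forskolin and AICAR, against 10.85, 10.86 and 10.95 with forskolin (-0.17, SE 0.043, adjusted p = 0.057). No AICAR value of these 3 genes reached a forskolin value, but none passed the test. Ccne1 and Ccne2 passed it without AICAR replicate 1, where 16.7% of all genes were called, and Ccnd1 without forskolin replicate 2 (2.88%). Over all 19 alternative settings the adjusted p reached 0.244 for Ccne1, 0.312 for Ccne2 and 0.258 for Ccnd1. The difference of Ccne2 ranged from -0.404 to -0.159. The D-type cyclins Ccnd2 (0.10) and Ccnd3 (0.018) were above 0.

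Forskolin with AICAR against control compares the joint treatment with the vehicle, and shares its arrays with the other 2 comparisons. Of the 44 genes 6 were called, the mitotic gene Cdc25c and 5 genes of the G1/S transition: Ccne1, Cdc6, Cdc25a, Cdt1 and E2f2 fell, by 1.13-fold (Cdt1) to 1.22-fold (Cdc6). These are 5 of 23 G1/S genes (21.7%), against 5.68% of all genes called lower and 7.89% of those with a mean of at least 9 (8.72% of all genes were called in either direction, and 3.04% higher). Of the 23, 17 (73.9%) were below 0, against 41.5% of all genes and 66.8% of those with a mean of at least 9. Their median was -0.079, against 0.025 over all genes and -0.033 over those with a mean of at least 9, and 11 (47.8%) lay below all control values, against 14.3% and 23.7%. The median was -0.051 without AICAR replicate 3. No G1/S gene was called higher.

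Cdc6, which with Cdt1 loads the MCM helicase at replication origins, had log2 values of 7.79, 7.63 and 7.80 with forskolin and AICAR, against 8.13, 8.04 and 7.90 in control (difference -0.28, SE 0.073, adjusted p = 0.0448). Cdt1 had 10.40, 10.38 and 10.44 with forskolin and AICAR, against 10.60, 10.60 and 10.55 in control (-0.18, SE 0.035, adjusted p = 0.0175). Cdc25a, the phosphatase that activates CDK2 at the start of S phase, had 9.56, 9.45 and 9.53 with forskolin and AICAR, against 9.79, 9.72 and 9.69 in control (-0.22, SE 0.042, adjusted p = 0.0151). In all 3 genes the highest value with AICAR was below the lowest control value, and the forskolin values lay between the other groups or overlapped control.

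E2f2, an activating E2F factor, had 9.56, 9.49 and 9.49 with forskolin and AICAR, against 9.82, 9.85 and 9.67 in control (-0.27, SE 0.053, adjusted p = 0.017). E2f1, the best known activator of the family, pointed the other way (0.070, adjusted p = 0.315), and E2f3 was at -0.22 (SE 0.087, adjusted p = 0.129) with a second probe at -0.10. Ccne1, cyclin E1, the CDK2 partner that drives entry into S phase, had 10.75, 10.66 and 10.74 with forskolin and AICAR, against 10.87, 10.93 and 10.90 in control (-0.18, SE 0.043, adjusted p = 0.0329). Its forskolin values of 10.85, 10.86 and 10.95 overlapped those of control.

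The genes of the MCM helicase, the sliding clamp and ribonucleotide reductase did not pass the test. The MCM subunits lay between -0.098 (Mcm4, adjusted p = 0.0965) and 0.058 (Mcm7), the sliding clamp Pcna was at -0.086, and the ribonucleotide reductase subunits Rrm1 and Rrm2, which make the building blocks of DNA, at -0.088 and 0.002. Cdk2 differed by -0.12 (adjusted p = 0.121), Cdk4 by -0.079 and Cdk6 by 0.055.

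These calls depended on which arrays were used. The number of called cell cycle genes was 6 with all arrays, 0 without AICAR replicate 2, 10 without AICAR replicate 1, 3 without AICAR replicate 3, 1 without control replicate 1 (Cdc25c) and 1 without control replicate 2 (Cdc25a). The share of all genes called moved too, from 8.72% with all arrays to 3.42%, 23.8% and 5.4% without AICAR replicates 2, 1 and 3. It was 5.17% and 3.99% without control replicates 1 and 2. No AICAR value of these 6 genes reached a control value, so leaving out 1 array could not change the sign of a difference. With single arrays left out the adjusted p reached 0.144 for Cdc6, 0.112 for Ccne1 and 0.0704 for the others.

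**Figure D3:**
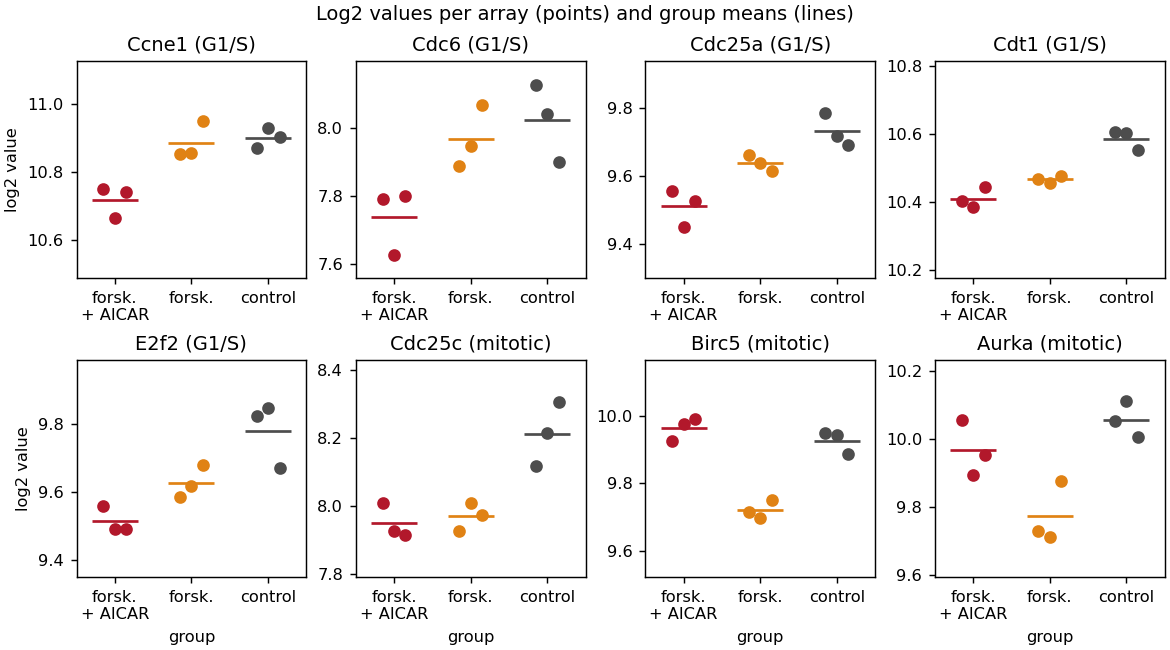
Log2 value per array (points) and group mean (lines) for the 7 called genes and for Aurka, all panels spanning the same log2 range. The 5 G1/S genes and Cdc25c are lower with forskolin and AICAR than in control without overlap, whereas Birc5 is lower with forskolin than in both other groups.

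Of the mitotic genes, Cdc25c fell, at 8.01, 7.93 and 7.92 with forskolin and AICAR, against 8.12, 8.22 and 8.31 in control (-0.26, SE 0.053, adjusted p = 0.0181). The 2 groups did not overlap. Cdc25c was already at a similar level with forskolin alone. It was 1 of 21 mitotic genes called lower (4.76%), a share near that of all genes, and the median of the 21 was -0.046, near the -0.033 of genes with a mean of at least 9. That median was 0.002 without AICAR replicate 3 and -0.016 without control replicate 3.

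The promoters of 4 of the 5 called G1/S genes held the letters of an E2F site and are printed for the same stretch, again from RefSeq on GRCm38.p6 and 5′ to 3′ on the strand of the gene. They are Cdc6 (chr11:98908001-98908200), Cdc25a (chr9:109875429-109875628), Cdt1 (chr8:122567865-122568064) and E2f2 (chr4:136172124-136172323), all on the plus strand. Capitals mark the E2F letters, searched on both strands. The motif was TTCCCGC, with TTCGCGC searched as a variant. A further form was TTGGCGC, which stands in Cdc25a, Cdt1 and E2f2, and the last form searched was TTGCCGC. On the opposite strand TTCCCGC reads as GCGGGAA.
Cdc6: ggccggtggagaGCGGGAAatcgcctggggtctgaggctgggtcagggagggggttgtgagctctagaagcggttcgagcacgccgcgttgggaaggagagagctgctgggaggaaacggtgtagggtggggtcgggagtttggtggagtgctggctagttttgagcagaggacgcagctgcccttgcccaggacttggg
Cdc25a: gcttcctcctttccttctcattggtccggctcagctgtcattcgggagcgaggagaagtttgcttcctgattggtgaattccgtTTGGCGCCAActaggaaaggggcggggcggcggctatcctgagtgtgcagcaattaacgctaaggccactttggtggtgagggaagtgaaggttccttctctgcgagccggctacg
Cdt1: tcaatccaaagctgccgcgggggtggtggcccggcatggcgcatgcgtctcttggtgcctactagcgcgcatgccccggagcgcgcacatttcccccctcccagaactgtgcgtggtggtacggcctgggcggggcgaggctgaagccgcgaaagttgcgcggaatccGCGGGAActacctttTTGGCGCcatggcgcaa
E2f2: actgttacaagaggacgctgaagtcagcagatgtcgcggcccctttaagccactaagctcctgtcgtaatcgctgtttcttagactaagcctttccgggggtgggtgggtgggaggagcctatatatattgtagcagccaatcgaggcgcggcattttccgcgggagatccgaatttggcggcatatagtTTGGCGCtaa
In Cdc25a 2 matches on opposite strands overlap as 1 run of capitals, and an E2F match can also share letters with a CCAAT box on the other strand, as it did in 1 window of the 44 genes.

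E2F letters were found in 13 of 23 windows of G1/S genes (56.5%), 3 of 17 of mitotic genes (17.6%) and 9.57% of all windows. The 12 G1/S genes with such a window had a median difference of -0.10 from control with forskolin and AICAR, 4 of them called, and the 7 without one had -0.031, with 1 called (Ccne1). In the same comparison with forskolin alone the medians were -0.054 and -0.015.

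The contrast of the 2 classes can be read array by array. Each gene was set relative to its mean over the 9 arrays and the genes of a class were averaged. The G1/S genes stood at -0.022, -0.072 and -0.055 with forskolin and AICAR, -0.002, 0.002 and 0.050 with forskolin and 0.036, 0.046 and 0.018 in control. All 3 AICAR arrays were below the other 6. The mean over all genes with a mean of at least 9 was also lower in 2 of the AICAR arrays than elsewhere, at 0.005, -0.043 and -0.043 with forskolin and AICAR, -0.012, 0.000 and 0.034 with forskolin and 0.004, 0.025 and 0.031 in control, and the part of this shift in the G1/S values was not tested.

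The mitotic genes stood at 0.069, -0.001 and -0.052 with forskolin and AICAR, -0.084, -0.046 and -0.036 with forskolin and 0.018, 0.057 and 0.074 in control. Forskolin and control arrays did not overlap, and the AICAR arrays overlapped both.

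The G1/S mean minus the mitotic mean was -0.091, -0.071 and -0.002 with forskolin and AICAR, 0.081, 0.048 and 0.085 with forskolin and 0.017, -0.012 and -0.056 in control. The 3 forskolin arrays were thus above the other 6, while the AICAR and control arrays overlapped. The group means were -0.055 ± 0.046, 0.072 ± 0.020 and -0.017 ± 0.037 (SD, n = 3 each). These are descriptions of classes chosen with earlier results known and carry no test.

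**Figure D4:**
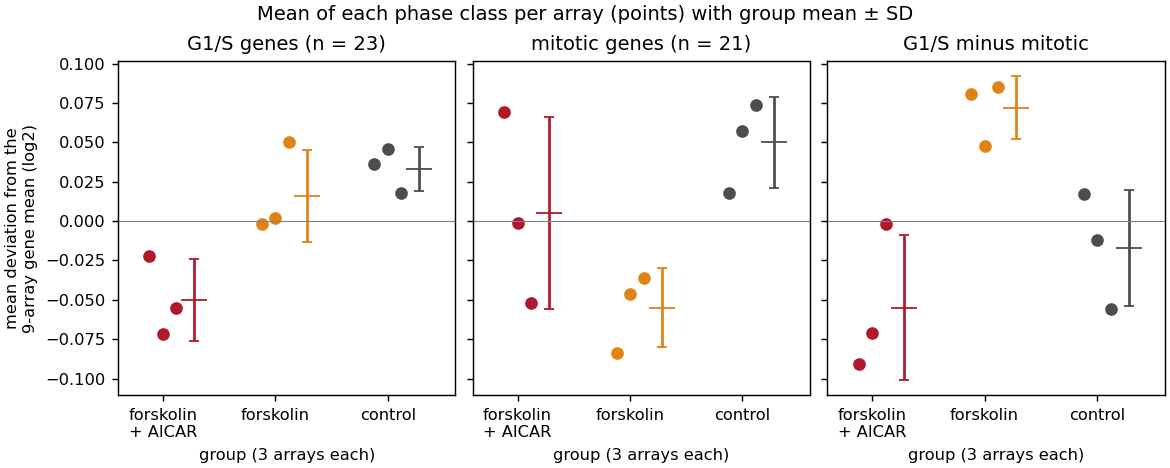
Mean over the 23 G1/S genes, over the 21 mitotic genes, and the first minus the second, in each array (points), with the group mean ± SD (n = 3) beside them, in log2 units relative to the 9-array mean of each gene. The AICAR arrays are lowest for the G1/S genes, the forskolin arrays lower than control for the mitotic genes, and the forskolin arrays highest for the difference.

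Other genes of the same pathway were taken from lists by role. Of 33 further replication genes 32 were measured. With forskolin and AICAR against control 11 fell, none rose and 21 did not pass, with a median of -0.123, against 5.68% of all genes called lower and 7.89% of those with a mean of at least 9. After quantile normalization 5 fell, with a median of -0.070, and with only the 2 groups compared 4 fell. Of all genes 4.46% and 3.05% were called lower in these 2 fits. Gins3, a subunit of the replicative helicase complex, had 8.14, 7.85 and 7.90 with forskolin and AICAR, against 8.52, 8.51 and 8.73 in control (-0.62, SE 0.083, 1.54-fold, adjusted p = 0.00259). Orc1, the largest subunit of the origin recognition complex, fell by 0.47 (SE 0.072, adjusted p = 0.00533), and both calls held with any 1 array left out. Mcm10 and Pole, the catalytic subunit of DNA polymerase epsilon, fell by 0.26 and 0.25, calls that ended without AICAR replicate 2 or control replicate 2, and without control replicate 1 (Mcm10) or control replicate 3 (Pole), at adjusted p of up to 0.0933. The count was 15 without AICAR replicate 1, 4 without AICAR replicate 2, 7 without forskolin replicate 2, 4, 3 and 5 without control replicates 1, 2 and 3, and 3 without replicate 3 of every group. In the same order, 10.4%, 2.63%, 4.05%, 3.54%, 2.9%, 2.69% and 1.6% of all genes were called lower.

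Against forskolin alone, 5 of the 32 fell with AICAR and none rose, against 4.12% of all genes called lower and 5.37% of those with a mean of at least 9. After quantile normalization 3 fell, with a median of -0.026 in place of -0.076, and with only the 2 groups compared 1 fell. Of all genes 3.84% and 2.24% were called lower in these 2 fits. Orc1 had 7.29, 7.16 and 7.06 with forskolin and AICAR, against 7.70, 7.75 and 7.92 with forskolin (-0.62, SE 0.072, adjusted p = 0.00155), a call that held with any 1 array left out. Gins3 fell by 0.40 (adjusted p = 0.0248, and up to 0.102 without any 1 AICAR array but replicate 1, or any 1 forskolin array), Mcm10 by 0.25 and Pole by 0.20. Both Mcm10 and Pole lost the call without any 1 array but AICAR replicate 1. The count was 9 without AICAR replicate 1 (8.26% of all genes called lower) and 1 to 3 without any other array (2.13% to 3.35%). After forskolin alone none of the 32 passed the test in limma, with 4 at an unadjusted p under 0.05 (7.27% of all genes). As with the mitotic genes, most were slightly lower after forskolin: 28 of 32 (87.5%) were below 0, with a median of -0.047. The forskolin values of 10 (31.2%) lay below all control values, against 7.13% of all genes and 14.5% of those with a mean of at least 9.

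Of 15 further regulators of the E2F, MYB-MuvB and FOXM1 group, E2f7 and E2f8 fell with AICAR, and none rose. Both are atypical E2F factors that repress E2F target genes. E2f8 had 9.61, 9.52 and 9.58 with forskolin and AICAR, against 9.88, 9.88 and 9.97 with forskolin (-0.34, SE 0.048, adjusted p = 0.00362) and 10.15, 10.06 and 10.03 in control (-0.51, SE 0.048, adjusted p = 0.000465). E2f7 had 9.27, 9.33 and 9.30 with forskolin and AICAR, against 9.52, 9.52 and 9.59 with forskolin (-0.25, SE 0.039, adjusted p = 0.0069) and 9.70, 9.63 and 9.62 in control (-0.35, SE 0.039, adjusted p = 0.00118). The groups did not overlap, and these 4 calls held with any 1 array left out. Without replicate 3 of every group, neither was called against forskolin. E2f6, another repressor, fell in the comparison with control (-0.29, adjusted p = 0.0181), but not without AICAR replicate 2 or 3 or control replicate 2 or 3 (adjusted p up to 0.0766). Called lower against forskolin were thus 2 of 15 (13.3%), beside 4.12% of all genes and 5.37% of those with a mean of at least 9. Against control it was 3 of 15 (20.0%), beside 5.68% and 7.89%.

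Of 51 further mitotic genes 50 were measured, and after forskolin 49 of these were below 0 with a median of -0.10. The forskolin values of 28 (56.0%) lay below all control values, against 7.13% of all genes and 14.5% of those with a mean of at least 9. Aspm, a spindle pole protein, was the only one called (-0.23, SE 0.041, adjusted p = 0.0414). It was 2.0% of the 50, beside 0.196% of all genes called lower and 0.46% of those with a mean of at least 9. The Aspm call ended without any 1 of the 9 arrays (adjusted p of 0.054 to 0.204). With each array left out, 46 to 49 of the 50 stayed below 0, which was fixed in advance for the 28 without overlap. With AICAR against forskolin 32 of the 50 were above 0 and 18 (36.0%) below, with a median of 0.038. Over all genes 40.8% were below 0, with a median of 0.023, and over those with a mean of at least 9, 59.3% and -0.018. Kif2c, a kinesin that takes apart microtubules, rose (0.21, SE 0.049, adjusted p = 0.0427, and up to 0.102 without any 1 array but AICAR replicate 1). It was 2.0% of the 50, beside 0.978% of all genes called higher. The median of the 50 was 0.008 without AICAR replicate 1, where 3 genes were also called lower (8.26% of all genes), 0.01 without forskolin replicate 1 and 0.075 without AICAR replicate 3. After quantile normalization it was 0.083, with 7 genes called higher, beside 5.79% of all genes called in either direction. With forskolin and AICAR against control Bora, Ska1, Cenpl and Espl1 fell by 0.20 to 0.31. These 4 of 50 (8.0%) are near the shares called lower, 5.68% of all genes and 7.89% of those with a mean of at least 9. In this comparison 45 of 50 were below 0, with a median of -0.082, beside 66.8% of genes with a mean of at least 9 below 0. After quantile normalization 29 of 50 were below 0, with a median of -0.026, and without replicate 3 of every group 33 of 50, with a median of -0.038. The count of 4 called genes was 12 without AICAR replicate 1, 0 without AICAR replicate 2 and 0 without control replicate 3, 2 without forskolin replicate 1, and 1 without AICAR replicate 3, forskolin replicate 2 or control replicate 1 or 2. Of all genes 10.4% were called lower without AICAR replicate 1, 2.63% without AICAR replicate 2 and 2.69% without control replicate 3. Without forskolin replicate 1 it was 4.26%, and in the last 4 fits 4.27%, 4.05%, 3.54% and 2.9%.

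Of 16 CDK inhibitors, pocket proteins and checkpoint kinases 15 were measured, and Cdkn1a, which shares its probe with another gene, was not analysed here. Cdkn2d, an inhibitor of CDK4 and CDK6, rose with AICAR against both forskolin (0.21, adjusted p = 0.0495) and control (0.20, adjusted p = 0.0411), and 1 further gene rose against control. After median centring no gene of this list was called higher in either comparison. The checkpoint kinase Chek1 (-0.33, SE 0.086, adjusted p = 0.0463), the CDK inhibitor gene Cdkn2c (-0.22, adjusted p = 0.0498), the pocket protein gene Rbl1 (-0.21, adjusted p = 0.0314) and 1 further gene fell against control. Against forskolin 1 of the 15 (6.67%) rose, beside 0.978% of all genes and 1.12% of those with a mean of at least 9. Against control 2 (13.3%) rose and 4 (26.7%) fell, beside 3.04% and 5.68% of all genes. Of genes with a mean of at least 9, 1.13% rose and 7.89% fell against control. Without any 1 of AICAR replicates 2 and 3 and control replicates 1 and 2, and with only the 2 groups compared, none of these 6 was called against control. In these fits 3.42% to 5.4% of all genes were called. With single arrays left out, the adjusted p reached 0.163 for Chek1, and for Cdkn2d 0.168 against forskolin and 0.107 against control.

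Of 25 ubiquitin ligases and adaptors that time the destruction of cell cycle proteins, 3 fell with forskolin and AICAR against control, beside 5.68% of all genes and 7.89% of those with a mean of at least 9. Ccnf, cyclin F, had 9.56, 9.24 and 9.38 with forskolin and AICAR, against 9.98, 9.99 and 9.96 in control (-0.58, SE 0.069, 1.50-fold, adjusted p = 0.00141). Fbxo5, the inhibitor of the anaphase-promoting complex, fell by 0.36 (SE 0.061, adjusted p = 0.00817). Both calls held with any 1 array left out, but without replicate 3 of every group none of the 25 was called (1.6% of all genes called lower). Fbxw7, the adaptor that targets cyclin E, fell by 0.20 (adjusted p = 0.0366), not without 6 of the 9 single arrays (adjusted p up to 0.107). After forskolin alone no gene passed the test in limma among these 25, the 15 inhibitors and checkpoint genes or the 15 E2F group regulators. At an unadjusted p under 0.05 there were 4, 2 and 4, against 7.27% of all genes. In these lists 84.0%, 80.0% and 60.0% were below 0, against 47.6% of all genes and 63.1% of those with a mean of at least 9. Forskolin values lay below all control values for 36.0%, 33.3% and 33.3%, against 7.13% and 14.5%.

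**Figure D5:**
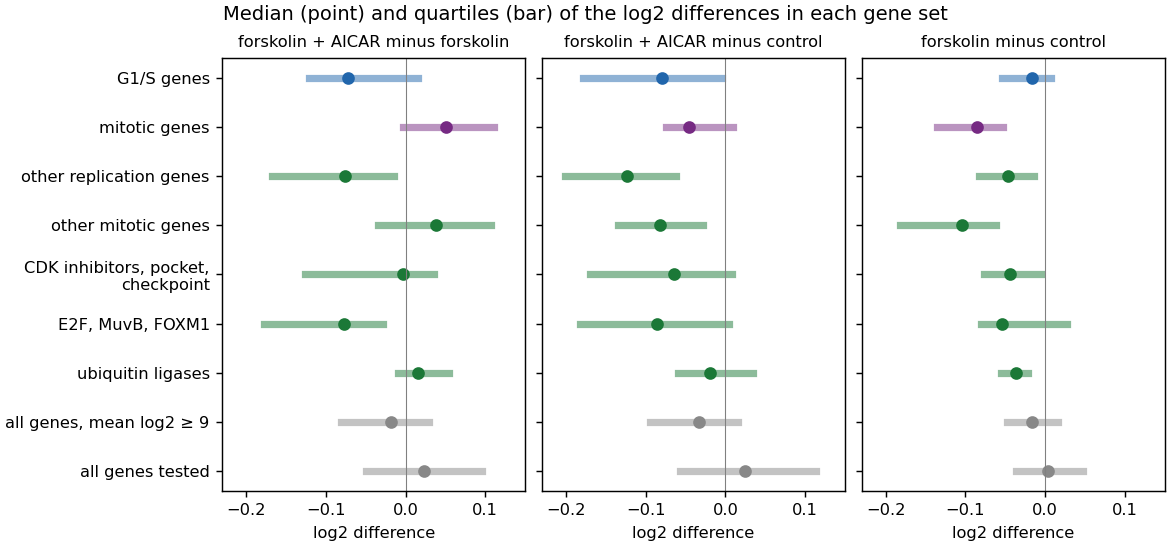
Median (point) and quartiles (bar) of the log2 differences in each gene set for the 3 comparisons, with the 44 genes in blue and purple, the further lists in green and all genes in grey. With AICAR against forskolin the medians of the replication sets lie left of 0 and those of the mitotic sets right of it, and after forskolin the medians of both mitotic sets lie furthest left.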

How the data were processed

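RNA of MA-10 cells was hybridised to 9 Affymetrix arrays, 1 sample each. The deposited table holds log2 expression values per probe, made by the authors with RMA and Partek per the submitters' processing notes. Versions and the genome build are not given in the sources used here. Of 35557 probes, 21789 had 1 gene symbol, 1621 had several and 12147 had none in GEO's platform annotation, and only the first kind was used, with the highest-mean probe for each of 19938 genes. No filter on dim probes was applied. One linear model per gene over the 3 groups, without covariates, was fitted in limma 3.58.1 (R 4.3.3) with lmFit and eBayes, and its p-values were adjusted by Benjamini-Hochberg over all genes. The other steps used Python 3.11.15. The fit was tested on simulated data with changes put into forskolin with AICAR against control. It called 26 of 67 changes of 0.25 (38.8%), 54 of 67 of 0.5 (80.6%) and 65 of 66 of 1 (98.5%), plus 5 unchanged genes. Differences as small as most of those here can thus be missed by the test.

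The genes, lists and tests were chosen with earlier results of these data known. Genes named with values at each array are those called changed, and the gene of smallest p in a class with no call, plus up to 4 called genes of each further list by size. Aurka, Plk1, Cenpe, Ccnd1 and Ccne2 were shown after their values were seen. Comparisons share arrays. Alternatives were another scaling, 2 filters on dim genes, another prior, array weights, 2-group fits, the mean of all probes of a gene, Ccna2 and Plk4 counted with the G1/S genes, an adjusted p under 0.1, a replicate block and left-out arrays. Promoter sequences are from RefSeq (GRCm38.p6), and Ccna2, Ccnd1, Ccnd2, Ccne2, Mcm4, Kif20a, Cdc25c and Aurkb had none printed or searched.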

Additional observations from a re-analysis of the deposited data

How the results depend on the processing

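No difference changed sign among those at an unadjusted p under 0.05, but this was partly fixed in advance. The replicate block, the filters on dim genes, the prior and the 2-group fits leave a difference as it is. So does leaving out an array of the group not compared. Over 19 alternatives for each difference, 535 results kept their side of the threshold, 57 lost the call and 35 gained it. Most of these differences were not called to begin with, and all losses fell on the called ones. Birc5 lost its call after forskolin in 12 of 19 alternatives, and with AICAR against forskolin in 1. For forskolin with AICAR against control, Ccne1 and Cdc6 lost it in 10 each, Cdt1 and Cdc25c in 7, and Cdc25a and E2f2 in 5. After forskolin against control, the number of called cell cycle genes was 1, and it became 2 at an adjusted p under 0.1, 2 with a trended and robust prior, 6 with array weights, and 0 with only the 2 groups compared or without replicate 3 of every group. It was 0 to 1 with single arrays left out. Over all genes 0.692% were called in the main fit, 0.958% with the trended and robust prior and 2.19% with array weights. With only the 2 groups compared it was 0.552%, without replicate 3 of every group 0.216%, and with single arrays left out 0.381% to 0.722%. For forskolin with AICAR against forskolin the number of called cell cycle genes was 1, and became 7 at an adjusted p under 0.1, 2 for genes with a mean log2 of at least 6, 4 after quantile normalization, 2 after median centring, 4 with a trended and robust prior, 11 with array weights, 0 without replicate 3 of every group, and 1 to 3 with single arrays left out. Over all genes 5.1% were called in the main fit, and 8.06%, 5.79%, 5.27% and 6.38% under the 4 settings from the filter to the prior. With array weights it was 28.7%, without replicate 3 of every group 1.21%, and with single arrays left out 2.44% to 16.7%. For forskolin with AICAR against control the number of called cell cycle genes was 6, and became 3 after quantile normalization, 0 with only the 2 groups compared, 12 with array weights, 1 without replicate 3 of every group, and 0 to 10 with single arrays left out. Over all genes 8.72% were called in the main fit, and 7.32%, 3.8%, 33.2% and 1.89% under these settings in turn. With single arrays left out it was 3.31% to 23.8%. The replicate block gave 0 called genes after forskolin and 1 for forskolin with AICAR against control, beside 0.416% and 4.38% of all genes. Whether the replicate numbers pair the samples is not known, and the main fit did not pair them. Deviations of same-numbered arrays correlated at 0.013 to 0.329 between forskolin and control. Between the AICAR arrays and either other group they correlated at -0.406 to 0.083. Arrays of different number were not compared, so these values cannot decide the pairing. The median of the G1/S genes after forskolin was -0.043 after median centring, -0.042 with array weights and -0.046 without replicate 3 of every group. With AICAR against forskolin it was -0.045 without replicate 3 of every group and -0.099 to -0.051 with single arrays left out. With forskolin and AICAR against control it was -0.054 after quantile normalization, -0.108 after median centring and -0.104 to -0.051 with single arrays left out. The median of the mitotic genes in that comparison was 0.018 without replicate 3 of every group and -0.056 to 0.002 with single arrays left out. Except for fewer samples and fewer genes where an alternative removes them, the cause was not tested. With 3 arrays a group, small differences near the threshold depend on single arrays.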
